A study of Mus musculus with 20 samples.

Results

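The interaction of cisplatin and KW6002 asks, gene by gene, whether the effect of cisplatin on a subcutaneous LLC1 tumor was the same in mice that also received KW6002. It was taken as (cisplatine+KW minus KW) minus (cisplatine minus vehicle) on the log2 scale, which is the same number as the KW6002 effect in cisplatin-treated mice less that in mice without cisplatin. A value of 0 means that both log2 effects added up in the tumors given both agents. A positive value means a higher level than their sum, and a negative value a lower one. All 20 tumors of the series entered, 5 in each of 4 groups, and 16665 of the 35226 genes listed had enough counts to be tested.

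LLC1 is an established mouse Lewis lung carcinoma line, and the cells were injected under the skin of the right flank in Matrigel. The hosts were male C57Bl6/J mice, 8 to 10 weeks old, and were assigned at random once a tumor reached 100 mm3. The labels name the groups vehicle, KW, cisplatine and cisplatine+KW, here written vehicle, KW6002, cisplatin and cotreated. KW6002 was given in a carrier of DMSO, cremophor and saline. All tumors grew from the same line, so the 4 groups share its genotype, and replicates are known only by the number in their titles.

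KW6002, or istradefylline, is an antagonist of the adenosine receptor encoded by Adora2a, a receptor coupled to cyclic AMP that restrains immune cells and signals in neurons and vessels. Cisplatin is a platinum drug that crosslinks DNA, which stalls replication forks and transcription and activates p53. A subcutaneous tumor holds carcinoma cells together with host macrophages, other leukocytes, fibroblasts and vessels, so a change in bulk RNA can come from any of them, and fewer cells of a type cannot be told apart from less RNA per cell.

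Libraries held 28.4 to 41 M counted reads, of which 99.9% fell in genes tested. Levels are given as CPM, the counts of a gene scaled to library size, with library sizes adjusted by TMM scaling. Carcinoma cell and lung epithelium markers summed to 3450 to 5360 CPM, with Vim, Krt18 and Krt8 at 95.2 or above in each, while Epcam, Sftpc and Scgb1a1 were at or near 0 in every tumor. Most of that sum was Vim, at 2830 to 4660 CPM, and it is not taken as a measure of carcinoma cell content. Summed macrophage markers lay at 2360 to 3490 CPM in vehicle, 2480 to 3430 in KW6002, 3230 to 4420 in cisplatin and 2750 to 3950 in cotreated tumors. KW6002 replicate 1 stood apart on lymphocytes, with 67.4 CPM for B cell markers against at most 6.93 in the other 19 tumors and 40.1 CPM for T and natural killer cell markers against at most 24.7. Cotreated replicate 4 stood apart on skeletal muscle, with 1310 CPM against at most 305 elsewhere. The number codes in the labels fall into a lower and a higher stretch, here called the earlier and the later run of codes. The split was made here by number alone, and the labels do not name it as a sequencing run, date or batch. Of the vehicle, KW6002, cisplatin and cotreated tumors, 1, 2, 2 and 3 carry earlier codes and the rest later ones.

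Few single genes passed the test for a departure from additivity, and those that did were spread over both directions. Of the genes tested, 11 were called (0.066%) at an adjusted p under 0.05 and a log2 value of at least 0.32 in size, 6 of them positive (0.036%) and 5 negative (0.03%). The positive genes were Enpp2, Stk38, 4930523C07Rik, Adamts1, Ptgfr and Pik3r1, and 4 of the negative ones Psd4, Arhgap4, Plcb2 and Bcl7a. At an unadjusted p under 0.05, 993 genes were positive (5.96%) and 1041 negative (6.25%). The median interaction over all genes was -0.005 and 49.17% of genes had a positive value.

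The number called depended on single tumors more than on the scaling. It was 0 in edgeR without vehicle replicate 2, KW6002 replicate 1, 2 or 4, cisplatin replicate 3, or cotreated replicate 2 or 3, fits in which 1630 to 1955 genes had an unadjusted p under 0.05. It was 2, 1 and 2 without vehicle replicates 3, 4 and 5. It was 6 without KW6002 replicate 3 or cotreated replicate 1, 5 and 4 without cisplatin replicates 4 and 5, and 2 without cotreated replicate 5. It was 22 without KW6002 replicate 5, 26 and 20 without cisplatin replicates 1 and 2, and 229 without cotreated replicate 4. That tumor was the highest in muscle genes, and whether this bears on the count was not tested. Leaving out both tumors that stood apart gave 131 calls, which included the 11, a setting chosen after seeing the data.

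**Figure D1:**
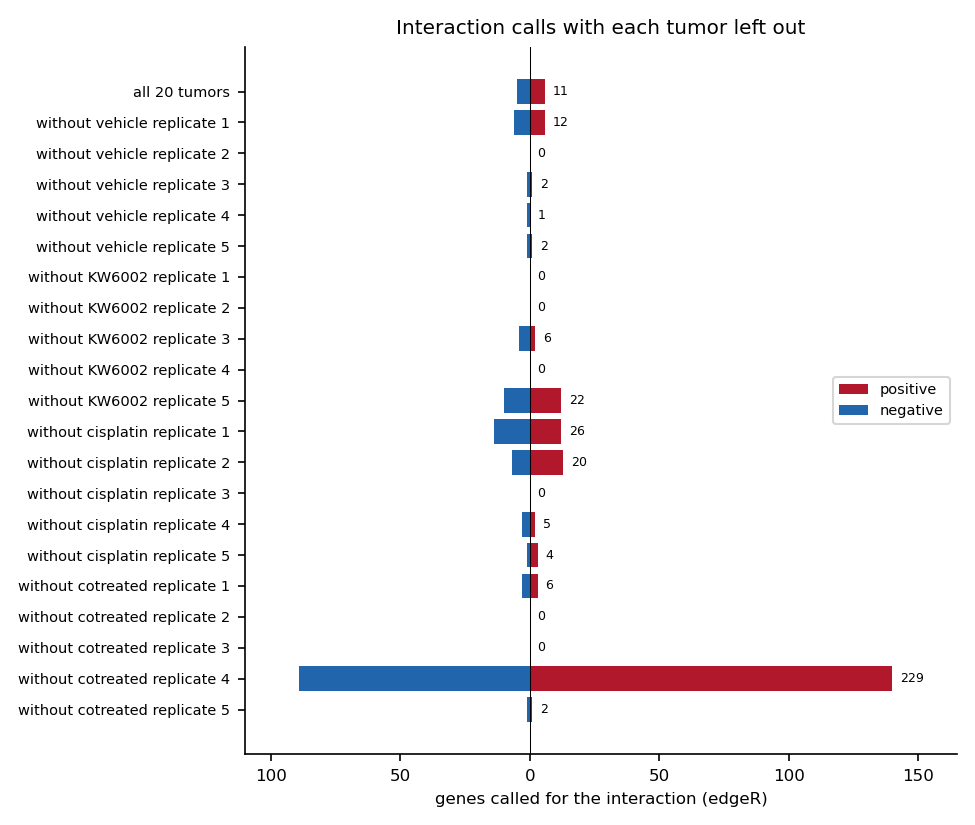
Number of genes called for the interaction (edgeR, x axis) in the fit of all 20 tumors and in fits that leave out 1 tumor each (y axis), with positive calls to the right, negative calls to the left and the total printed beside each bar. The count was 11 with all tumors, 0 in 7 of the 20 fits and 229 without cotreated replicate 4.

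The count also depended on the test run on the same 20 tumors. In edgeR it was 0 when genes were tested against the fold limit itself and 0 with a replicate block, with 598 and 1899 genes at an unadjusted p under 0.05, and it was 10 with relative log expression scaling and 8 with upper quartile scaling. DESeq2 called 258 genes (1.55%), 145 positive (0.87%) and 113 negative (0.678%), and limma voom with sample weights called 291 (1.75%). DESeq2 and limma voom shared 199 genes, and both called all 11 of the edgeR genes.

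The interaction is made up of 4 effects, which share tumors with it. KW6002 without cisplatin changed 0 genes (0%) in edgeR, with 339 at an unadjusted p under 0.05, and DESeq2 and limma voom also called 0. KW6002 with cisplatin changed 667 genes (4%), against 287 in the earlier and 1 in the later run of library codes alone and 28 when tested against the fold limit. Single tumors moved that count, to 289 or 295 when cotreated replicate 2 or 3 was left out, to 396 for cisplatin replicate 3 and to 1013 for cotreated replicate 4. Cisplatin changed 1762 genes (10.6%) without KW6002 and 3884 (23.3%) with it. The order of these counts differed between the runs, with 215 and 3440 genes in the earlier run and 2743 and 1654 in the later. Across genes the log2 effect of KW6002 had an interquartile range of 0.113 without cisplatin and 0.281 with it. The 2 effects, which share no tumor, had a Pearson r of 0.072 and a Spearman correlation of 0.034 across the 16665 genes, a description only, since genes are not independent replicates.

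**Figure D2:**
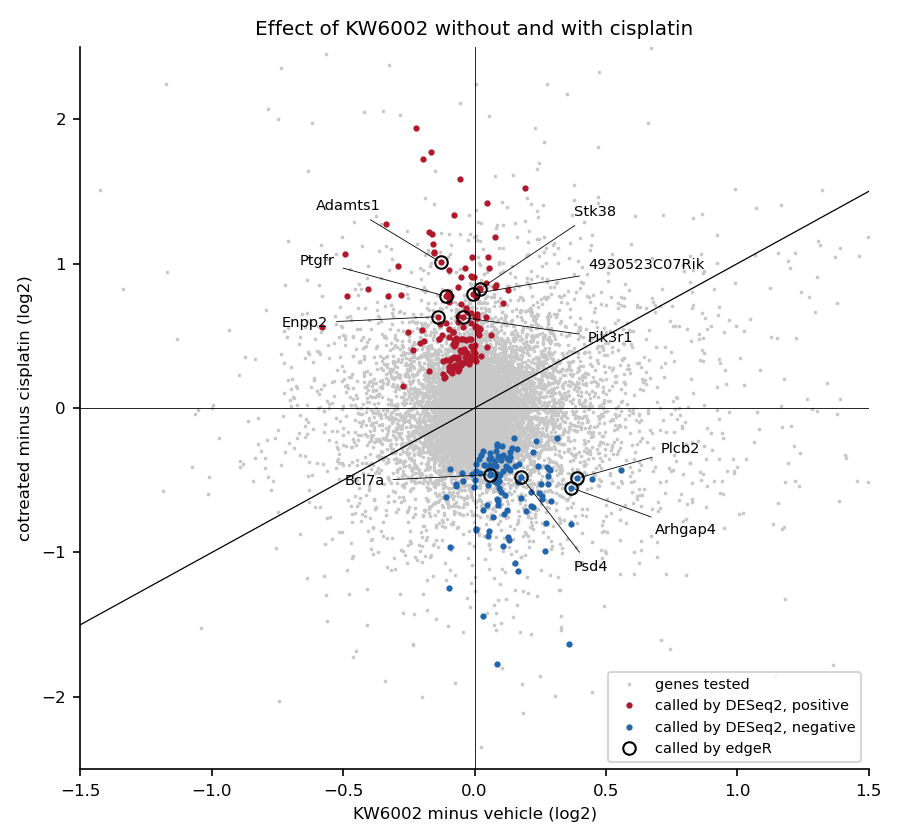
Log2 effect of KW6002 on each gene tested without cisplatin (x axis, KW6002 minus vehicle) and with cisplatin (y axis, cotreated minus cisplatin), with DESeq2 interaction calls coloured, 10 of the 11 edgeR calls circled and named, and the diagonal marking equal effects. The calls spread along the y axis near 0 on the x axis, and 76 genes lie outside the axes.

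Of the genes called negative, Plcb2 and Arhgap4 are known mainly from blood cells, where they act in signalling. Arhgap4 (chromosome X, 73891442 to 73921870, GRCm38), an activating protein for small GTPases, was at 14.2, 11.5, 12.7, 12.1 and 14.4 CPM in vehicle tumors and 20.1, 18.2, 14.3, 16 and 15 in KW6002 tumors. Cisplatin tumors had 10.3, 8.43, 11.7, 10.3 and 9.07 CPM, and cotreatment gave 6.61, 5.32, 7.54, 8.09 and 6.43. The effects of KW6002 had opposite signs, 0.37 without and -0.55 with cisplatin, and the cotreated tumors were the lowest. The interaction was -0.92 (95% confidence interval -1.27 to -0.57, adjusted p = 0.0391, edgeR), with 12.9 CPM from additive effects and 6.80 measured.

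Plcb2 (chromosome 2, 118707517 to 118728438), the phospholipase C that G protein-coupled receptors activate in blood cells, showed the same order of signs. Its levels were 8.6, 7.45, 6.89, 5.95 and 6.39 CPM in vehicle, 10.9, 9.77, 7.75, 9 and 8.82 in KW6002, 7.34, 7.39, 9.5, 8.56 and 7.03 in cisplatin, and 6.14, 5.07, 5.76, 5.78 and 5.65 in cotreated tumors. Cotreated tumors lay below all cisplatin and all KW6002 tumors and overlapped with vehicle tumors. The KW6002 effect was 0.39 without cisplatin and -0.49 with it, and the interaction was -0.88 (-1.21 to -0.54, adjusted p = 0.0391).

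Psd4 (chromosome 2, 24367580 to 24414954), an exchange factor for the small GTPase Arf6, was at 24.1, 23.3, 21.7, 21.7 and 22.2 CPM in vehicle and 29.4, 26.6, 22.5, 24.1 and 25.1 in KW6002 tumors. Cisplatin tumors had 22.2, 24.8, 26.4, 23.9 and 29 CPM, and cotreatment gave 19.6, 15.8, 17.6, 18.6 and 19.2. The fitted effect of each agent alone was small and positive, 0.18 for KW6002 and 0.16 for cisplatin, and neither was called in edgeR. All 5 cotreated tumors lay below the other 15. The interaction was -0.66 (-0.89 to -0.42, adjusted p = 0.0391).

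Bcl7a (chromosome 5, 123343834 to 123374992) encodes a subunit of SWI/SNF chromatin remodelling complexes and is not particular to blood cells. It was at 24.2, 21, 21.2, 19.8 and 20.2 CPM in vehicle, 24.9, 22.1, 19.9, 22.4 and 21.4 in KW6002, 16.9, 18.2, 18.5, 17.4 and 17.3 in cisplatin, and 13, 12.9, 11.6, 13.4 and 13.3 in cotreated tumors. Cisplatin tumors lay below all tumors without cisplatin, and cotreated tumors below all cisplatin tumors. The interaction was -0.52 (-0.73 to -0.32, adjusted p = 0.0453), beside a cisplatin effect of -0.27.

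KW6002 replicate 1, the tumor high in lymphocyte genes, was the highest KW6002 tumor for each of these 4 genes. Without it the interactions were -0.85 for Arhgap4, -0.81 for Plcb2, -0.60 for Psd4 and -0.48 for Bcl7a, with adjusted p values of 0.0939 to 0.103, and none was called. The 6 positive genes were not called in that fit either, with values of 0.62 to 1.13 and adjusted p values of 0.0749 to 0.0958. Without cotreated replicate 4 all 10 were called, the negative ones at -0.99, -0.89, -0.67 and -0.54 in the same order.

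**Figure D3:**
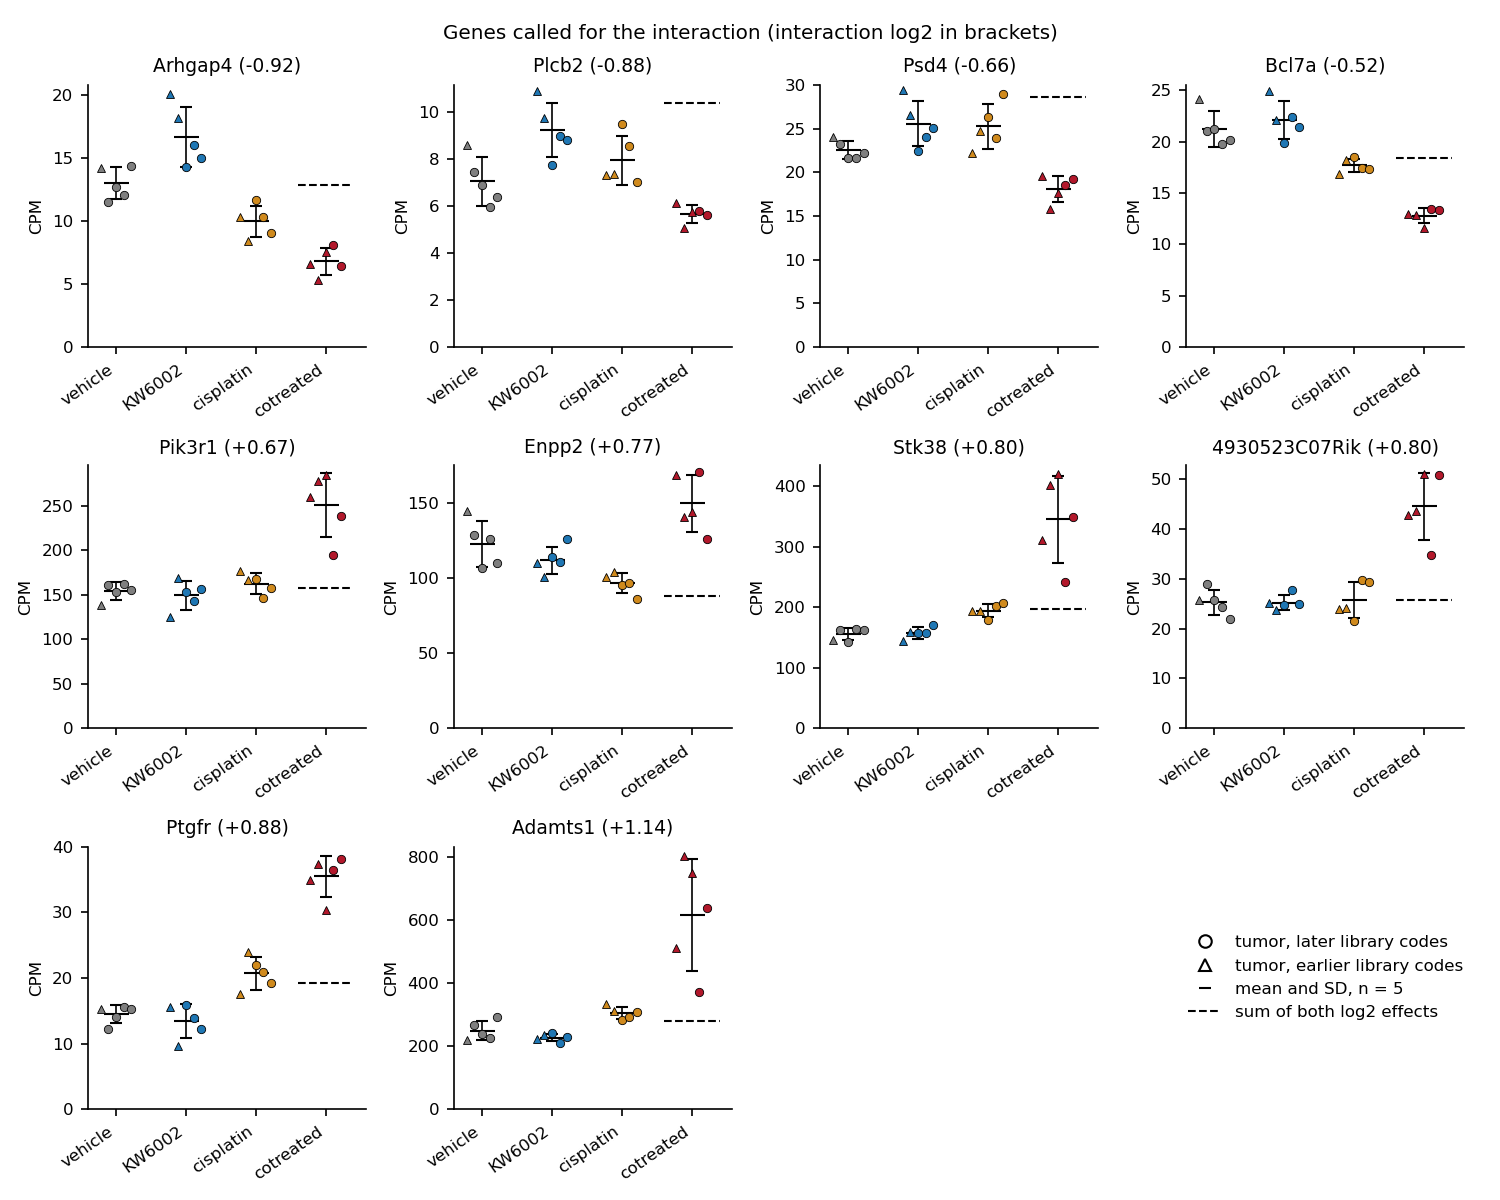
CPM (y axis) of 10 of the 11 genes called for the interaction in each tumor of the 4 groups (x axis), ordered by interaction log2, with the mean and SD of 5 tumors and a dashed line at the cotreated level that the sum of both log2 effects gives. Cotreated tumors lie below that line for Arhgap4, Plcb2, Psd4 and Bcl7a and above it for the other 6 genes. These 10 genes, called on the same tumors, have no overlap between cotreated and cisplatin tumors, as have 4.83% of all genes tested.

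The 6 genes called positive encode secreted or signalling proteins, apart from 4930523C07Rik, whose role is not given here. Enpp2 (chromosome 15, 54838901 to 54952892) encodes autotaxin, the secreted enzyme that makes lysophosphatidic acid. It was at 145, 129, 107, 126 and 110 CPM in vehicle, 110, 101, 114, 111 and 126 in KW6002, 101, 104, 95.8, 97 and 86.1 in cisplatin, and 169, 141, 144, 171 and 126 in cotreated tumors. The cisplatin group was the lowest and touched only KW6002 replicate 2 at 101 CPM, and the cotreated group was the highest but overlapped with the upper vehicle and KW6002 tumors. The cisplatin effect changed sign with KW6002, from -0.35 (adjusted p = 0.0104) to 0.42 (adjusted p = 0.000939), and the interaction was 0.77 (0.51 to 1.03, adjusted p = 0.0351).

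Stk38 (chromosome 17, 28970880 to 29007995), which encodes the NDR1 kinase of the Hippo pathway family, was at 146, 162, 143, 163 and 162 CPM in vehicle and 144, 158, 157, 157 and 171 in KW6002 tumors. It was at 194, 193, 178, 201 and 206 CPM in cisplatin and 310, 402, 420, 242 and 349 in cotreated tumors. The 3 steps did not overlap, and cotreated replicate 4 was the lowest of its group. An interaction of 0.80 (0.51 to 1.10, adjusted p = 0.0391) separated the 345 CPM measured from the 197 CPM of additive effects, and without that tumor it was 0.91.

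Adamts1 (chromosome 16, 85793827 to 85803113), a secreted metalloprotease that cleaves proteoglycans, had the largest positive value of the called genes. Vehicle tumors were at 218, 268, 239, 226 and 292 CPM, KW6002 tumors at 221, 235, 240, 211 and 230, cisplatin tumors at 334, 310, 284, 291 and 308, and cotreated tumors at 510, 803, 750, 371 and 638. Cotreated replicate 4 was again the lowest of its group and still above all other tumors. The interaction was 1.14 (0.71 to 1.56, adjusted p = 0.0391), and 1.27 without cotreated replicate 4.

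Ptgfr (chromosome 3, 151796502 to 151837630), the receptor for prostaglandin F, was at 15.2, 12.2, 14, 15.5 and 15.3 CPM in vehicle, 15.5, 9.61, 15.8, 13.9 and 12.2 in KW6002, 17.6, 24, 22, 20.9 and 19.2 in cisplatin, and 35, 37.3, 30.3, 36.5 and 38.1 in cotreated tumors. The groups with cisplatin were apart from each other and from those without it. The interaction was 0.88 (0.55 to 1.22, adjusted p = 0.0391), on top of a cisplatin effect of 0.52.

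Pik3r1 (chromosome 13, 101680563 to 101768217) encodes a regulatory subunit of phosphoinositide 3-kinase. Its 15 values outside the cotreated group ran from 125 to 177 CPM, and the cotreated tumors were at 260, 278, 284, 195 and 238. Neither agent alone moved it past 0.08 in log2, and the interaction was 0.67 (0.41 to 0.94, adjusted p = 0.0453). 4930523C07Rik (chromosome 1, 160044382 to 160080208), annotated as protein coding, ran from 21.6 to 29.7 CPM in the 15 other tumors and was at 42.8, 43.7, 51, 34.8 and 50.9 in cotreated tumors. Its interaction was 0.80 (0.50 to 1.10, adjusted p = 0.0391). For both genes the cotreated group alone stood apart, with replicate 4 its lowest tumor.

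For all 11 genes the cotreated and cisplatin tumors did not overlap, which held for 4.83% of all genes tested, but the interaction was fitted on the same tumors. On the linear CPM scale, where additivity means that the differences rather than the ratios add, all 11 kept their sign. All 11 also had the same sign in the earlier and in the later run of library codes, against 50.6% of the 16623 genes that could be tested in both, although both runs had entered the fit that chose the genes. Enpp2 was at 1.03 in the earlier run and 0.68 in the later, Stk38 at 0.93 and 0.55, and Plcb2 at -0.63 and -0.91. Neither run alone gave a call (0 in edgeR), with 1303 genes in the earlier and 1261 in the later run at an unadjusted p under 0.05. No alternative fit turned the sign of any of them.

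The stretches of 250 bases before the start site were searched because 5 of the genes moved one way and 6 the other. The RefSeq promoter table (GRCm38.p6) gave an entry for 8 of the 11, and where a gene had several starts the outermost was used. The letters searched on both strands were GAGGAA, the core of sites for PU.1, the factor of myeloid genes, TGACG, the core bound by CREB, the factor that cyclic AMP activates, TGTTCT, part of the site of the glucocorticoid receptor, and TGTTTAC, a core of forkhead factors. No letters of one motif lie inside another. GAGGAA was found in 23.1%, TGACG in 17.8%, TGTTCT in 16.1% and TGTTTAC in 3.06% of 27025 promoters of the same length. Among the 3 negative and 5 positive genes with an entry, GAGGAA was in 1 and 1, TGACG in 0 and 2, and the other 2 motifs in 0 and 0. The 4 promoters with a match are printed 5′ to 3′ on the strand of the gene, with the matching letters in capitals: Plcb2 at chr2:118728439-118728688 (minus strand), Ptgfr at chr3:151837529-151837778 (minus), Adamts1 at chr16:85803114-85803363 (minus) and 4930523C07Rik at chr1:160044130-160044379 (plus).
Plcb2: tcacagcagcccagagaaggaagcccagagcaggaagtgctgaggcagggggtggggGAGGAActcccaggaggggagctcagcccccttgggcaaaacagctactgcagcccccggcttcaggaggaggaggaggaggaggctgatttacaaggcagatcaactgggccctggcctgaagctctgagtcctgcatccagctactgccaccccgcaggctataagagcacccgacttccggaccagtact
Ptgfr: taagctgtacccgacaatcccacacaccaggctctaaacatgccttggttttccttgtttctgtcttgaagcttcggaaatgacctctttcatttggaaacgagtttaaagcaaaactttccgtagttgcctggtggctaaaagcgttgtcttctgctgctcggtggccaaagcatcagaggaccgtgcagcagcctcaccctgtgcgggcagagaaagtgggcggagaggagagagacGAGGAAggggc
Adamts1: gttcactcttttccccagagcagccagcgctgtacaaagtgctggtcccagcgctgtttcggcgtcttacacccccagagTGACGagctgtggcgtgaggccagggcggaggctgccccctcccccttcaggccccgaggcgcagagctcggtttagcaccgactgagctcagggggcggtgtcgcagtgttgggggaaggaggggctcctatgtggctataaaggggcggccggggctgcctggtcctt
4930523C07Rik: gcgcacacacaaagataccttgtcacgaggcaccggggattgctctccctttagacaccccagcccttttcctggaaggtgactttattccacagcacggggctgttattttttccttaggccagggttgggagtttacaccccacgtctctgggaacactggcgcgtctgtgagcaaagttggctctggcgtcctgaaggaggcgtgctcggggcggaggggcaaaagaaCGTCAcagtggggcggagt
In Plcb2 and Ptgfr the capitals mark GAGGAA on the strand of the gene, in Adamts1 TGACG on that strand and in 4930523C07Rik its reverse complement. A match describes these letters only, and the numbers are too few to set the genes apart from other promoters.

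Genes with a symbol and a mean of at least 50 counts were then taken in order of p until 12 were named in each direction, which added 6 positive and 7 negative ones. Their adjusted p values were between 0.0536 and 0.0571 and they were not called. Other positive genes lay in the same range, among them Prkacb (0.0536) and Dnajb4 (0.0571). All 13 were called by DESeq2, which called 1.55% of all genes tested, and by limma voom, which called 1.75%. None had overlapping cotreated and cisplatin tumors, a separation found in 4.83% of all genes tested. The 13 were chosen by p in the same tumors, so neither result is independent evidence. The positive genes were Fkbp5, Slc25a29, Rhoj, Zhx3, Prune2 and Tmem106b.

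Fkbp5 encodes a cochaperone of Hsp90 that the glucocorticoid receptor induces. It was at 154 to 231 CPM in vehicle, 159 to 218 in KW6002, 300, 273, 305, 353 and 385 in cisplatin, and 574, 790, 785, 446 and 745 in cotreated tumors, with an interaction of 1.06 (0.63 to 1.49). Both groups with cisplatin stood above those without it and apart from each other. Slc25a29, a mitochondrial carrier of basic amino acids, had an interaction of 1.27 (0.75 to 1.80), with 5.46 to 6.89 CPM in cisplatin and 7.90 to 16.1 in cotreated tumors. Rhoj, a small GTPase of endothelial cells, was at 45.6 to 69.6 CPM in cisplatin and 71.3 to 135 in cotreated tumors (1.05, 0.62 to 1.48).

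Zhx3, a transcriptional repressor, was at 24.5 to 28.9 CPM in cisplatin and 33.4 to 65.3 in cotreated tumors (0.92, 0.55 to 1.29). Prune2 was at 146 to 189 and 232 to 371 CPM (0.82, 0.48 to 1.16), and Tmem106b, a lysosomal membrane protein, at 166 to 230 and 250 to 348 CPM (0.77, 0.45 to 1.09). In each of these 6 genes cotreated replicate 4 was the lowest tumor of its group. Without it these 6 were called, with interactions of 0.84 to 1.40, as were the 7 negative genes below.

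The 7 negative genes next in order were Ccl12, Mirt1, Nes, Enthd1, Umps, Prodh and Polr1d. Ccl12, a chemokine for monocytes, was at 20.6 to 29 CPM in vehicle, 20.4 to 28.6 in KW6002, 13.7, 19.5, 27.2, 32.6 and 32.5 in cisplatin, and 8.98, 9.04, 6.17, 10.4 and 11.6 in cotreated tumors. All cotreated tumors lay below all others, and the interaction was -1.47 (-2.07 to -0.87). The long noncoding RNA Mirt1 was at 7.21 to 11.9 CPM in cisplatin and 3.62 to 5.28 in cotreated tumors (-1.26, -1.80 to -0.71).

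Nes, the intermediate filament nestin, was at 217 to 284 CPM in cisplatin and 157 to 209 in cotreated tumors (-0.54, -0.78 to -0.30). Umps, which carries out the last steps of UMP synthesis, was at 98.5 to 111 and 69.7 to 87.2 CPM (-0.44, -0.62 to -0.26). Polr1d, a subunit shared by RNA polymerases I and III, was at 63.8 to 68.2 and 42.3 to 52.5 CPM (-0.40, -0.58 to -0.23). Prodh, the first enzyme of proline breakdown, had -0.43 and Enthd1 -0.52. The cisplatin effect without KW6002 was -0.14 for Umps and -0.23 for Polr1d.

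For each gene list the share with an unadjusted p under 0.05 is set beside that among all genes, 5.96% positive and 6.25% negative. DESeq2 calls in a list stand against 0.87% of all genes called positive and 0.678% called negative by DESeq2. No test was run on a list. List medians of over 0.10 in size had the same sign with relative log expression scaling, upper quartile scaling and an offset for transcript length and base composition.

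Among the pathway lists, 4 immune lists had the lowest medians, beside markers of lymphocytes that were lower still. Of 35 tested chemokines and receptors, 12 were negative (34.3%) and 0 positive, with a median of -0.64. DESeq2 called 5 of them, all negative, where it called 0.678% of all genes negative. Among the negative genes were ligands that recruit T cells and monocytes, with Cxcl10 at -1.996 (adjusted p = 0.164), Ccl4 at -1.85 (adjusted p = 0.193) and Ccl12. Cxcl10 was at 14.5 ± 4.31 CPM in vehicle, 18.5 ± 5.64 in KW6002, 4.87 ± 1.66 in cisplatin tumors and 1.55 ± 1.29 under cotreatment (SD, n = 5). The median KW6002 effect on the list was 0.14 without and -0.58 with cisplatin.

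Interferon response genes had 14 of 49 negative (28.6%) and 0 positive (median -0.53), with Irf1, a transcription factor of the response, at -0.41 (adjusted p = 0.0812). Antigen presentation by MHC class I and II had 8 of 22 negative (36.4%) and a median of -0.45, led by the immunoproteasome subunit Psmb10 (-0.55, adjusted p = 0.162). Inflammatory cytokines had 7 of 24 negative (29.2%) and 2 positive (median -0.35). Tnf was at -1.07 and Il33, an alarmin of stromal cells, at 0.41.

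KW6002 replicate 1, the tumor high in lymphocyte genes, moved with these lists. Without it the medians were -0.44 for chemokines, -0.42 for interferon response, -0.38 for MHC and -0.30 for cytokines, and 8 of 35, 9 of 49, 5 of 22 and 5 of 24 genes were negative, among 5.03% of all genes. Without cotreated replicate 4 the interferon count was 27 of 49 and the median -0.71, where 7.71% of all genes were negative. In the earlier and the later run of library codes the medians were -0.07 and -0.58 for MHC and -0.15 and -0.36 for cytokines. For chemokines they were -0.42 and -0.52, and for interferon response -0.38 and -0.47. The part of that tumor and of the runs in the result was not tested beyond these values.

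A list of 46 genes of blood cells was put together after the interaction values had been seen and holds Psd4, Arhgap4 and Plcb2, so its count is no independent evidence. All 46 had a negative interaction, where 49.17% of all genes had a positive one, and the median was -0.43. Of the 46, 32 had a p under 0.05 (69.6%). DESeq2 called 18 of them, where it called 0.678% of all genes negative. The pan-leukocyte phosphatase Ptprc was at -0.52 (adjusted p = 0.137), the actin bundling protein Lcp1 at -0.56 (adjusted p = 0.0771), the GTPase Rac2 at -0.79 (adjusted p = 0.0812) and Aif1, a calcium-binding protein of macrophages, at -0.89 (adjusted p = 0.0668). The integrin Itgam had -0.16 (adjusted p = 0.72). The sum over the list was 2070 to 2410 CPM in vehicle, 2370 to 2680 in KW6002, 2070 to 2500 in cisplatin and 1850 to 2120 in cotreated tumors, so cotreated tumors were the lowest and overlapped with the vehicle and cisplatin groups.

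The counts of this blood cell list in parts of the data are no independent evidence either, since its genes were chosen on the same tumors. The negative count was 30 without KW6002 replicate 1, 31 without cotreated replicate 4 and 32 without both, where 5.03%, 7.71% and 6.63% of all genes were negative. Within the earlier run it was 13 with a median of -0.25, and within the later run 30 with a median of -0.45, where 3.42% and 3.79% of all genes were negative. Markers of macrophages had a median of -0.32, with 2 of 10 negative and 1 positive. The Fc receptor Fcgr1 was at -0.67 (adjusted p = 0.164), while Mertk, a receptor for dying cells, was at 0.32 (adjusted p = 0.253) and the mannose receptor Mrc1 at -0.15 (adjusted p = 0.806). The macrophage median was 0.20 in the earlier and -0.43 in the later run.

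Markers of T and natural killer cells had a median of -1.73 (4 of 12 negative), which was -0.95 (2 of 12) without KW6002 replicate 1. Those of B cells had a median of -2.21 (2 of 4), which was -0.23 (0 of 4) without that tumor. In the earlier and the later run the medians were -0.76 and -1.95 for T and natural killer cells and -2.73 and -0.26 for B cells. In the later run 4 of 12 and 0 of 4 were negative, where 3.79% of all genes were. The summed T and natural killer cell markers were at 5.48 to 13.3 CPM in cotreated tumors. They overlapped with vehicle (3.69 to 13.9), KW6002 (6.32 to 40.1) and cisplatin tumors (7.03 to 24.7). The summed B cell markers were at 4.40 to 6.03 CPM in cotreated tumors. They also overlapped with vehicle (3.72 to 5.8), KW6002 (4.66 to 67.4) and cisplatin tumors (4.2 to 6.93). Neutrophil markers had a median of -0.75 over 6 genes, which was -0.49 without KW6002 replicate 1, -0.98 to -0.35 without single tumors, and 0.14 in the earlier and -0.71 in the later run. Their sums were 48 to 123 CPM in vehicle, 53 to 153 in KW6002, 15.6 to 70.6 in cisplatin and 16.4 to 35.5 in cotreated tumors.

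**Figure D4:**
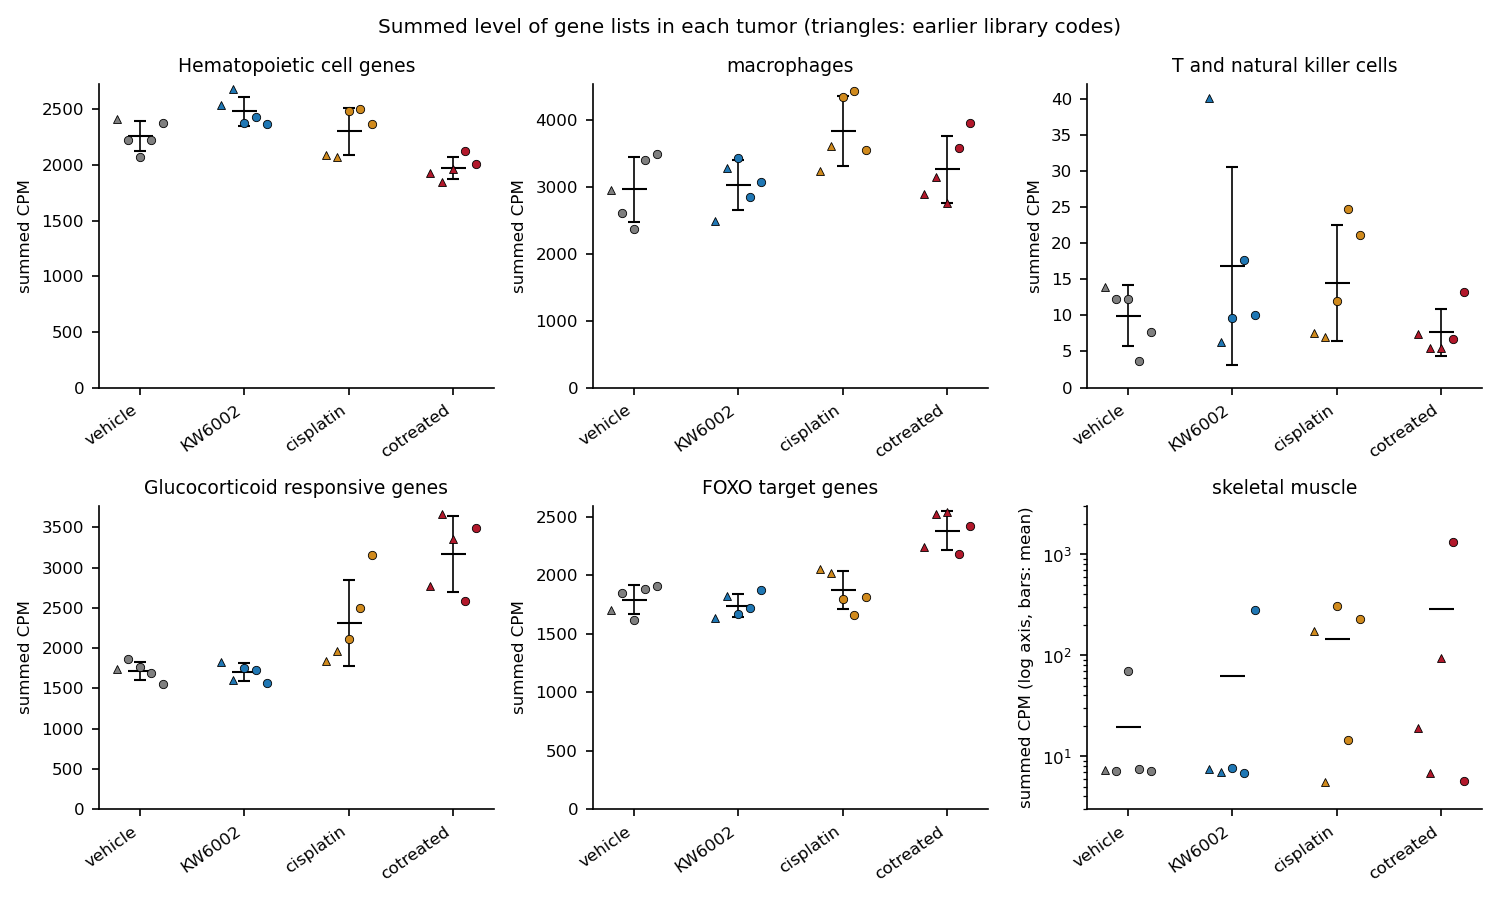
Summed CPM (y axis) of 6 gene lists in each tumor of the 4 groups (x axis), with the mean and SD of 5 tumors in 5 panels and, on the log axis of skeletal muscle, the mean alone. By group mean, blood cell genes are lowest and glucocorticoid responsive and FOXO target genes highest in cotreated tumors, in lists put together after values were seen. Cotreated tumors overlap with vehicle and cisplatin tumors for blood cell genes and with cisplatin tumors for glucocorticoid responsive genes. KW6002 replicate 1 is the high tumor for T and natural killer cells at 40.1 CPM, and cotreated replicate 4 is the high tumor for muscle at 1310 CPM.

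Lists of growth and DNA synthesis had small negative medians. DNA replication genes had 15 of 48 negative (31.2%) and 0 positive (median -0.16), among them the nuclease and helicase Dna2 (-0.47, adjusted p = 0.0807), the origin licensing factor Cdc6 (-0.46) and the helicase subunit Mcm2 (-0.43). S phase regulators and E2F targets had 8 of 30 negative (26.7%), led by thymidylate synthase, Tyms (-0.46, adjusted p = 0.128), also with a median of -0.16. That median was -0.21 in the earlier and -0.09 in the later run. In the later run 1 of 30 was negative (3.33%), where 3.79% of all genes were. Purine and pyrimidine synthesis had 12 of 39 negative (30.8%) and 2 positive (median -0.13), led by Umps and Tyms, with Ctps2 at 0.28. In contrast, 0 of 47 genes of G2 and mitosis had a p under 0.05 in either direction and their median was -0.02.

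RNA polymerase I and ribosome biogenesis had 19 of 57 negative (33.3%) and 0 positive (median -0.15), with Polr1d and the processing factors Rrp12 (-0.41) and Noc2l (-0.37) called by DESeq2. Of 79 ribosomal proteins, 9 were negative (11.4%) and 1, Rpl5 at 0.33, positive, with a median of -0.17 that was -0.10 with an offset for transcript length and base composition. Heat shock chaperones, a list that is mainly cytosolic, had 9 of 22 negative (40.9%) and 2 positive (median -0.21). Members ran both ways, with the Hsp90 cochaperone Fkbp4 at -0.37 (adjusted p = 0.0807) and the mitochondrial cochaperonin Hspe1 at -0.33, against the Hsp40 protein Dnajb4 at 0.61 (adjusted p = 0.0571).

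The integrated stress and unfolded protein response had 8 of 36 negative (22.2%) and 1 positive (median -0.14), led by the serine synthesis enzyme Psat1 (-0.47, adjusted p = 0.0812). In the earlier and the later run the medians were -0.16 and -0.14 for DNA replication, -0.13 and -0.11 for ribosome biogenesis, -0.26 and -0.11 for chaperones and -0.05 and -0.09 for the stress response, while G2 and mitosis was at 0.01 and 0.10. The negative counts within the runs were 7 and 3 of 48 for DNA replication and 9 and 2 of 22 for chaperones, where 3.42% and 3.79% of all genes were negative. Without KW6002 replicate 1 the negative counts were 12 for DNA replication, 12 for ribosome biogenesis and 3 of 79 for ribosomal proteins (3.8%), where 5.03% of all genes were negative. Without cotreated replicate 4 the last was 17 (21.5%), where 7.71% were. Oxidative phosphorylation had 2 of 76 negative, and 8 without cotreated replicate 4 (median -0.11, but 0.07 in the earlier run), and hypoxia and glycolysis 0 of 35 negative and 1 positive (median -0.17, but 0.09 in the earlier run and 0.13 without cisplatin replicate 5).

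**Figure D5:**
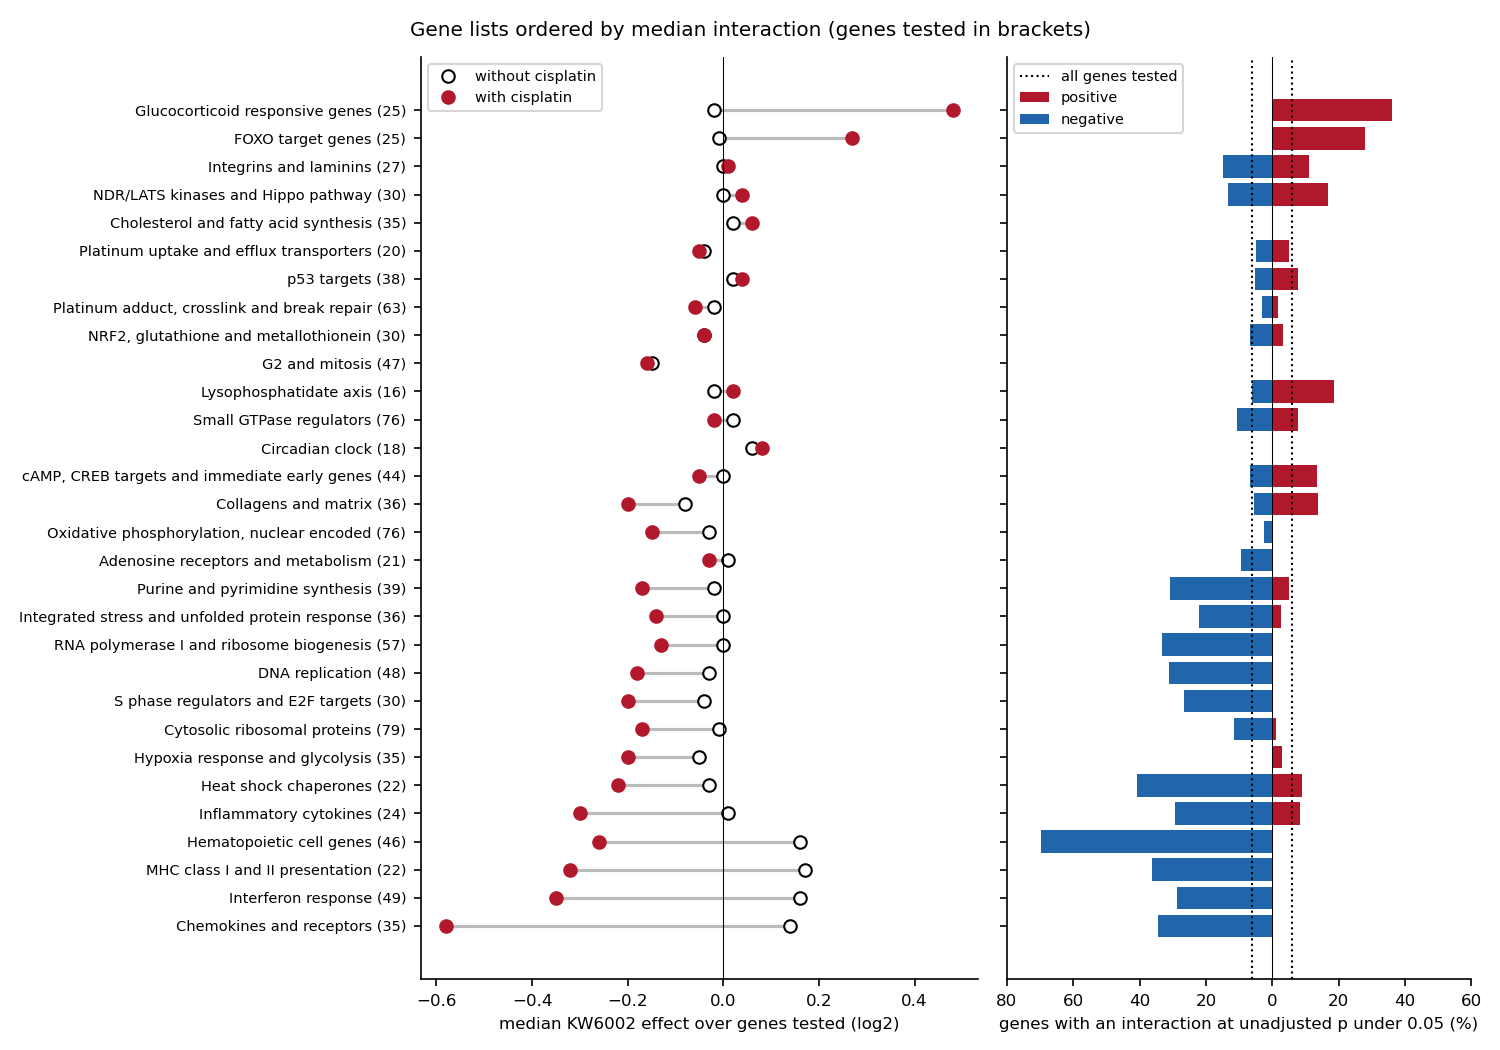
Left, median log2 effect of KW6002 (x axis) without cisplatin (open) and with cisplatin (filled) in each pathway list and each of the 3 lists put together after values were seen (y axis, ordered by median interaction), without the lists of cell type markers. Right, share of each list's tested genes with a positive or negative interaction at an unadjusted p under 0.05, with dotted lines at 5.96% and 6.25% for all genes. Of the lists drawn, chemokines and receptors lie lowest, with 34.3% negative, and the glucocorticoid responsive genes, which are among those 3, highest, with 36% positive.

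A list of 25 glucocorticoid responsive genes and one of 25 FOXO targets were both put together after Fkbp5 and others had been seen and are given as descriptions. Of the glucocorticoid responsive genes, 9 were positive (36%) and 0 negative, DESeq2 called 6 and limma voom 3, and the median was 0.50. DESeq2 called 0.87% of all genes positive. Of the genes named next, limma voom did not call Tsc22d3, Klf9 and Zbtb16. Besides Fkbp5 they included Tsc22d3, which encodes the mediator GILZ (1.11, adjusted p = 0.144), the transcription factors Klf9 (0.96, adjusted p = 0.167) and Zbtb16 (2.16, adjusted p = 0.213), and Glul, glutamine synthetase (0.50, adjusted p = 0.128).

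Zbtb16 was at 0.333 ± 0.290 CPM in vehicle, 0.280 ± 0.142 in KW6002, 1.35 ± 0.860 in cisplatin tumors and 5.17 ± 1.96 under cotreatment (SD, n = 5). Summed over the list, levels were 1560 to 1870 CPM in vehicle, 1570 to 1830 in KW6002, 1840, 1960, 2110, 2500 and 3160 in cisplatin, and 2770, 3660, 3350, 2580 and 3490 in cotreated tumors. Cisplatin replicate 5 overlapped with the cotreated group. The list median was 0.89 in the earlier and 0.40 in the later run, 0.53 without KW6002 replicate 1 and 0.56 without cotreated replicate 4.

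FOXO targets had 7 of 25 positive (28%) and 0 negative, with a median of 0.24. Members ran from -4.78 to 1.27. The median was 0.14 in the earlier and 0.24 in the later run. Without cotreated replicate 4, 10 of 25 were positive, where 7.16% of all genes were. Bmf, which encodes a BH3-only protein of apoptosis, was at 1.23 (adjusted p = 0.0679), the sestrin Sesn1, also a p53 target, at 0.92 (adjusted p = 0.119), and Txnip, an inhibitor of thioredoxin, at 0.64 (adjusted p = 0.176). Bmf was at 20.8 ± 3.74 CPM in vehicle, 18.7 ± 1.81 in KW6002, 26.6 ± 3.35 in cisplatin and 55.8 ± 18.3 in cotreated tumors. The summed list ran from 1620 to 2050 CPM in the other 15 tumors and from 2180 to 2540 CPM in cotreated tumors, with no overlap. Since the list was put together after values of these tumors had been seen, this separation is no independent evidence.

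The Hippo list had a median of 0.06, with 5 of 30 positive (16.7%) and 4 negative, and the positive genes were Stk38, its relative Stk38l (0.56, adjusted p = 0.0771), their scaffold Fry (0.56, adjusted p = 0.155), the secreted target Ccn2 (1.11, adjusted p = 0.19) and Tead4, a transcription factor (0.32). Stk38l was at 21.0 to 29.7 CPM in cisplatin and 30.5 to 36.7 in cotreated tumors. DESeq2 called Stk38, Stk38l, Fry and Ccn2, of which limma voom did not call Fry and Ccn2. Among the negative genes were Amotl2 and Wwc1, scaffolds of the LATS kinases, at -0.47 and -0.32.

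In the lysophosphatidate list, 3 of 16 genes were positive and 1 negative. Beside Enpp2 stood the receptor Lpar1 (0.58, adjusted p = 0.172) and the phosphatase Plpp1 (0.24, adjusted p = 0.375), while the phosphatase Plpp2 had -0.21 (adjusted p = 0.202), and the list median was -0.02. Regulators of Arf and other small GTPases had 8 of 76 negative (10.5%) and 6 positive (7.89%), with a median of -0.04. Psd4 and Arhgap4 were called negative, and Cyth4, an Arf exchange factor of blood cells, was at -0.55 (adjusted p = 0.0712), whereas Vav3 was at 0.33 (adjusted p = 0.161) and Arfgap3 at 0.27 (adjusted p = 0.137).

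Genes of cyclic AMP signalling and its early targets had 6 of 44 positive (13.6%) and 3 negative (median -0.05). Without KW6002 replicate 1 there were 3 positive (6.82%), where 4.95% of all genes were positive. Prkacb, a catalytic subunit of protein kinase A, had 0.49 (adjusted p = 0.0536), while Jun was at -0.37 (adjusted p = 0.285). The genes of the adenosine receptors were not called. Adora2a, the target of KW6002, was near the floor at 0.832 ± 0.173 CPM in vehicle, 0.889 ± 0.342 in KW6002, 0.419 ± 0.276 in cisplatin and 0.364 ± 0.142 in cotreated tumors, with an interaction of -0.31 (SE 0.52, adjusted p = 0.841). Adora2b, the low affinity receptor, had -0.50 (adjusted p = 0.249), Adora3 -0.14 (adjusted p = 0.893) and Nt5e, which makes adenosine from AMP, 0.28 (adjusted p = 0.617). Adora1 held 176 counts in all 20 tumors and was not tested. In the whole adenosine list, 2 of 21 genes were negative and 0 positive. The median was -0.12, but -0.04 without KW6002 replicate 1, -0.01 without cisplatin replicate 4 and 0.01 in limma voom, with Entpd1, which breaks down ATP, at -0.43 (adjusted p = 0.144).

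Lists nearest to the known action of cisplatin had medians between -0.02 and 0.03. Among p53 targets, 3 of 38 were positive and 2 negative (median 0.03), while the median effect of cisplatin on them was 0.54 without and 0.56 with KW6002. Repair of platinum adducts, crosslinks and breaks had 1 of 63 positive and 2 negative (median -0.01), with Rev3l, of the polymerase that bypasses lesions, at 0.37 and the checkpoint kinase Chek1 at -0.25. Platinum transporters had 1 of 20 in each direction, Abcg2 at 0.43 and Abcc1 at -0.32, and a median of 0.03, and without cotreated replicate 4 there were 3 in each direction, where 7.16% of all genes were positive and 7.71% negative. In the list of glutathione and metallothionein genes, 1 of 30 was positive and 2 were negative (median -0.02), and the exception was Gclc, the rate-limiting enzyme of glutathione synthesis, at 1.00 (adjusted p = 0.104), called by DESeq2.

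Cholesterol and fatty acid synthesis had 0 of 35 genes in either direction (median 0.04, -0.26 in the earlier and 0.14 in the later run) and circadian clock genes 0 of 18 (median -0.04, 0.26 and -0.07). Collagens and matrix had 5 of 36 positive and 2 negative (median -0.06, but 0.35 in the earlier run), with decorin, Dcn, at 0.40 (adjusted p = 0.189). Integrins and laminins had 3 of 27 positive and 4 negative (median 0.07). Itga10, a collagen-binding integrin, was at 1.33 (adjusted p = 0.0598). Endothelial markers had a median of 0.25, with 2 of 10 genes positive and Kdr, a receptor for VEGF, at -0.22. That median was 0.13 without vehicle replicate 3, and 0.10 with 0 of 10 genes positive in the earlier run. Fibroblast markers had a median of 0.24, with 3 of 10 positive and the collagen gene Col1a1 at -0.86.

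Markers of tissue around a tumor were uneven between tumors of a group. Skeletal muscle had a median of -0.77, adipocytes 2.86 and red blood cells 1.24, with 0, 0 and 1 gene at a p under 0.05, the last negative. Leaving out single tumors moved these medians between -3.83 and 2.90, -1.84 and 4.04, and 0.78 and 1.49. Of the epidermal markers 1 gene was tested, at -0.02, and the carcinoma cell list had a median of 0.04 with 0 of 6 genes at that p.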

How the data were processed

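RNA of 20 LLC1 tumors was sequenced. Per the labels and the study's methods, the authors aligned reads with STAR to mm10, and the deposited values are raw counts per gene from HTSeq 0.6.1p1. The strand option is not given in the sources used here. Counts were fitted with edgeR 4.0.16 (R 4.3.3): TMM scaling, filterByExpr by group and a robust quasi-likelihood test, two-sided, in 1 model of 4 group means. A gene was called at a Benjamini-Hochberg adjusted p under 0.05 and a log2 value of at least 0.32 in size. Adjusted p-values are over all genes tested in this fit, and counts within lists use its unadjusted p. Values given without a tumor, within a run or with a block come from that fit and its own genes tested. They measure the spread between tumors, and no replicates agreed within counting noise. Named were the called genes, 1 of which is not reported here, then the lowest p in each direction to 12 (symbol, mean count at least 50), then examples from each list, some chosen after their values were seen. DESeq2 1.42.0, limma voom (limma 3.58.1), other scalings, filters and run terms, and leaving out tumors were alternatives. Members and lists were chosen with earlier results of these data known. The hematopoietic, glucocorticoid and FOXO lists were added after values were seen.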

Additional observations from a re-analysis of the deposited data

Results flagged for a closer look

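In groups of 5 tumors, a tumor whose gap to the nearest other exceeded Dixon's 95% critical value was found in 11 of 148 groups examined, and chance alone exceeds it in about 1 in 20 groups. For the genes named, these were Bcl7a in cotreated replicate 3, the lowest of its group at 11.6 CPM, and Prodh in KW6002 replicate 5, the lowest at 20.9 CPM. For summed markers, skeletal muscle was high in vehicle replicate 3 (69.3 CPM), KW6002 replicate 5 (282 CPM) and cotreated replicate 4 (1310 CPM), and adipocytes in vehicle replicate 2 (377 CPM). Neutrophil markers were high in cotreated replicate 4 (35.5 CPM), T and natural killer cells in cotreated replicate 5 (13.3 CPM), B cells in KW6002 replicate 1 (67.4 CPM), endothelium in vehicle replicate 3 (280 CPM) and fibroblasts in KW6002 replicate 3 (12400 CPM).

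The KW6002 effect differed between tumors with and without cisplatin, by the interaction test of edgeR itself, for Enpp2 (0.77), Psd4 (-0.66), Stk38 (0.80), Arhgap4 (-0.92), 4930523C07Rik (0.80), Plcb2 (-0.88), Adamts1 (1.14), Ptgfr (0.88), Bcl7a (-0.52) and Pik3r1 (0.67).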

How the results depend on the processing

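Against 11 interaction calls, DESeq2 gave 258, limma voom 291, the offset for transcript length and base composition 39, no filter 21, at least 10 counts in every tumor 39, run of library codes as a term 17 and separate run terms 26. A test against the fold limit gave 0 calls (598 genes at an unadjusted p under 0.05), and either run alone 0. Leaving out single tumors gave 0 to 229, and leaving out both KW6002 replicate 1 and cotreated replicate 4, chosen after seeing the data, 131. With a replicate block the count was 0 (1899 genes at that p), with adjusted p of 0.0502 to 0.0769 for the 11 genes. The deviation correlation of same-number pairs had a median of -0.026 (-0.392 to 0.391), against 0.007 for pairs of other numbers. It was over 0.1 in 12 of 30 same-number pairs, and 3 of 20 tumors correlated best with their own number. These values gave no sign that the numbers pair the tumors, but they cannot settle it. KW6002 with cisplatin (667) gave 1018 by limma voom, 28 against the fold limit, 1 in the later and 287 in the earlier run, 1086 with no fold limit, 1010 without both tumors and 289 to 1013 without single tumors. Cisplatin without KW6002 (1762) gave 447 against the fold limit, 1104 with separate run terms, 2743 in the later and 215 in the earlier run and 2752 with no fold limit. Cisplatin with KW6002 (3884) gave 1763, 1654 in the later run and 5837. KW6002 without cisplatin stayed at 0 in every fit that left out 1 tumor. Upper quartile scaling put 43.8% of the genes at an unadjusted p under 0.05 on the positive side, against 48.8%. No called gene changed sign in any fit, but the medians of 22 of 41 lists did in at least 1 alternative, among them macrophages from -0.32 to 0.20, neutrophils from -0.75 to 0.14, oxidative phosphorylation from -0.11 to 0.07 and hypoxia from -0.17 to 0.09 in the earlier run, hypoxia to 0.13 also without cisplatin replicate 5, the adenosine list from -0.12 to 0.01 by limma voom, red blood cells from 1.24 to -0.61 with at least 10 counts in every tumor, and muscle and adipocytes without single tumors. Causes of these shifts were not tested. The small number of tumors in a run (1 earlier vehicle tumor) limits the values within runs.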

Other observations

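Genes of families examined after their values had been seen are given as values only. Among the flavin-containing monooxygenases, enzymes that oxidise drugs and other amines, Fmo6 was at 1.29 and Fmo2 at 1.24. Among 11 Toll-like receptors, the sensors of microbial molecules, the median was 0, and 6 were positive, among them Tlr4 at 0.26. DESeq2 called 2, Tlr1 at -0.82 and Tlr9 at -0.78, where it called 0.678% of all genes negative. The catalytic subunits of protein kinase A differed, with Prkacb at 0.49 and Prkaca at -0.01. Of the sestrins, Sesn1 was at 0.92, Sesn2 at 0.02 and Sesn3 at -0.35.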
